A study of Mus musculus with 8 samples.

Results

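Transcript levels of 8 receptors through which plasma cells receive survival or death signals were measured in bone marrow plasma cells lacking Blimp1 or Xbp1. The receptors were taken by name from a table of 27179 mouse genes: Tnfrsf17, Tnfrsf13b, Tnfrsf13c, Il6ra, Il6st, Cd28, Fas and Tnfrsf10b. All 8 passed the filter on low counts, which kept 15073 genes. The design sets each knockout against wild type (WT) of its own batch and so asks which transcripts depend on either transcription factor in antibody-secreting cells. The groups were Blimp1KO (Blimp1-/-, batch 1), WT of batch 1, Xbp1KO (Xbp1-/-, batch 2) and WT of batch 2, each with 2 libraries described as biological replicates. Every cell population came from C57BL/6 mice and was sorted from bone marrow as positive for a Blimp1-GFP reporter and for surface CD138, so all groups, WT included, share the reporter and the gate. Ages, the exons deleted, how the deletion was made and whether animals were pooled are not given in the sources used here.

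BCMA and TACI (genes Tnfrsf17 and Tnfrsf13b) bind the cytokines BAFF and APRIL, the BAFF receptor (Tnfrsf13c) binds BAFF, and BCMA is known for sustaining long-lived plasma cells of the bone marrow. The interleukin-6 receptor alpha chain (Il6ra) binds IL-6 and signals through the shared chain gp130 (Il6st) to JAK kinases and STAT3, while CD28, best known on T cells, also delivers survival signals to plasma cells. Fas and the TRAIL receptor DR5 (Tnfrsf10b) carry death domains that recruit FADD and caspase 8. Blimp1 is a transcriptional repressor that extinguishes B cell genes, and XBP1 drives the secretory programme under the stress sensor IRE1.

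Blimp1 is known to bind sites with a GAAAG core and XBP1 sites with an ACGTG core, so the promoters of the receptors were searched for both on both strands, where they read CTTTC and CACGT. RefSeq promoters (GRCm38.p6, 250 bases before to 50 after the start) were matched for 6 of the 8 receptors, all but Cd28 and Tnfrsf10b. The letters GAAAG stood in 57.3% and ACGTG in 19.6% of all 32851 promoters of this length. Promoters of 3 receptors are printed 5′ to 3′ along the gene, with capitals marking both cores: Tnfrsf17 has the most GAAAG matches, and Il6ra and Fas are the ones with ACGTG. They lie at chr16:11313559-11313858 (plus strand), chr3:89913147-89913446 (minus strand) and chr19:34290409-34290708 (plus strand).
Tnfrsf17: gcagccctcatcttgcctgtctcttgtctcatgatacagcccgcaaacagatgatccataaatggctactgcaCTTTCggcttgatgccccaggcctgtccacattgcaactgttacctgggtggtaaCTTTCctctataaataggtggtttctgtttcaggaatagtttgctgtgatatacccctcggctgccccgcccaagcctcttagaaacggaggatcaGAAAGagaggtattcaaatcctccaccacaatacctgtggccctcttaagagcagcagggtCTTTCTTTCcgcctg
Il6ra: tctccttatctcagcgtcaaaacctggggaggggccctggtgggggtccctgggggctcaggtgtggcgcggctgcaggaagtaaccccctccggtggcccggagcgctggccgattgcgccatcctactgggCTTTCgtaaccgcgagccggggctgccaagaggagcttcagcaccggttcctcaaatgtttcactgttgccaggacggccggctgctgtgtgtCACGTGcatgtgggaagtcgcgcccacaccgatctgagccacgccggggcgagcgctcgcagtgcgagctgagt
Fas: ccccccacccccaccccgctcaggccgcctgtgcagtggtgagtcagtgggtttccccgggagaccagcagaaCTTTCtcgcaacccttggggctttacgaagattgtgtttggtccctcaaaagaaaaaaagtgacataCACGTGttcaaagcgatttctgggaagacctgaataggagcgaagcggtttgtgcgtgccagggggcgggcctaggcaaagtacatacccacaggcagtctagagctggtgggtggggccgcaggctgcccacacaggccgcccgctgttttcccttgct
The Tnfrsf17 promoter held 5 GAAAG matches, of which the last pair, on the opposite strand 35 and 39 bases after the start, share 1 base, and no ACGTG. Il6ra and Fas each held 1 GAAAG and 2 ACGTG matches, the ACGTG pair being both strands of 1 palindrome, CACGTG, whose first letters counted per strand lie 23 and 24 bases upstream of the start in Il6ra and 109 and 110 upstream in Fas. Il6st held 2 GAAAG matches, Tnfrsf13c held 1 and Tnfrsf13b none, and none of these 3 held ACGTG. The start used in the promoter table lies inside the gene span given below by 577 bases for Tnfrsf17, 472 for Tnfrsf13b and 12 for Fas, and coincides with the gene's 5′ end for the other 3, so matches are placed from that table's start and other starts of these genes were not searched. A match describes letters in this window and not a bound site.

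Total counts were 44.0 M to 145 M per library (M for 1000000 counts), of which 19.0 M to 72.9 M lay outside the 261 immunoglobulin genes. Libraries were scaled by TMM (factors 0.564 to 2.11), and levels are given as counts per 1000000 (CPM) on that scale. Prdm1, which encodes Blimp1, had 243 and 176 CPM in Blimp1KO, against 301 and 306 CPM in WT of batch 1. Xbp1 had 1302 and 1105 CPM in Xbp1KO, against 2129 and 2203 CPM in WT of batch 2. Neither difference passed the threshold (log2 fold changes -0.54 and -0.85, adjusted p = 0.401 and 0.0939, edgeR quasi-likelihood test), and a whole-gene count includes reads outside a deleted part, so it does not check the genotype labels. The 7 plasma cell markers, Tnfrsf17 among them, were present in every library, with summed levels, mostly of the J chain gene Igj, of 58312 to 71964 CPM in Blimp1KO against 109971 to 118360 CPM in WT of batch 1, and 32045 to 39948 CPM in Xbp1KO against 49821 to 67439 CPM in WT of batch 2. In Blimp1KO all 7 had negative estimates and 0 were called. In Xbp1KO the list was mixed, with 4 positive and 3 negative estimates: Mzb1 fell (-1.96, adjusted p = 0.0120), whereas Sdc1, the gene of CD138, had 639 and 534 CPM in Xbp1KO, against 395 and 309 CPM in WT of batch 2 (adjusted p = 0.0980). In batch 2, 1 library of each group stood apart in markers of neutrophils and erythroid cells. S100a8 was at 192 CPM in Xbp1KO replicate 2 and 0.337 CPM in Xbp1KO replicate 1, and at 102 CPM in WT replicate 4 and 0.461 CPM in WT replicate 3. Hba-a1 was at 340 and 2.43 CPM in those Xbp1KO libraries, and at 101 and 10.6 CPM in those WT libraries. The 2 Blimp1KO libraries differed from each other with gene length, which is taken up with the values it touches.

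None of the 8 receptors was called changed in Blimp1KO or in Xbp1KO by edgeR's quasi-likelihood test at an adjusted p below 0.05. By the same rule 0.862% of all genes tested were called in Blimp1KO and 7.70% in Xbp1KO. At an unadjusted p below 0.05, 1 receptor passed in each knockout, Tnfrsf10b in both cases, where 13.9% and 23.6% of all genes passed. The median log2 fold change of the 8 receptors was -0.27 in Blimp1KO, against -0.01 over all genes, and 0.10 in Xbp1KO, against 0.08 over all genes. DESeq2 called 0 of the 8 in Blimp1KO and 1, Tnfrsf10b, in Xbp1KO. With Xbp1KO replicate 2 and WT replicate 4 both left out, 0 of 8 were called in either knockout, in a fit with 1 library in each batch 2 group. In these bulk libraries, fewer cells of a type and less RNA per cell cannot be told apart.

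**Figure D1:**
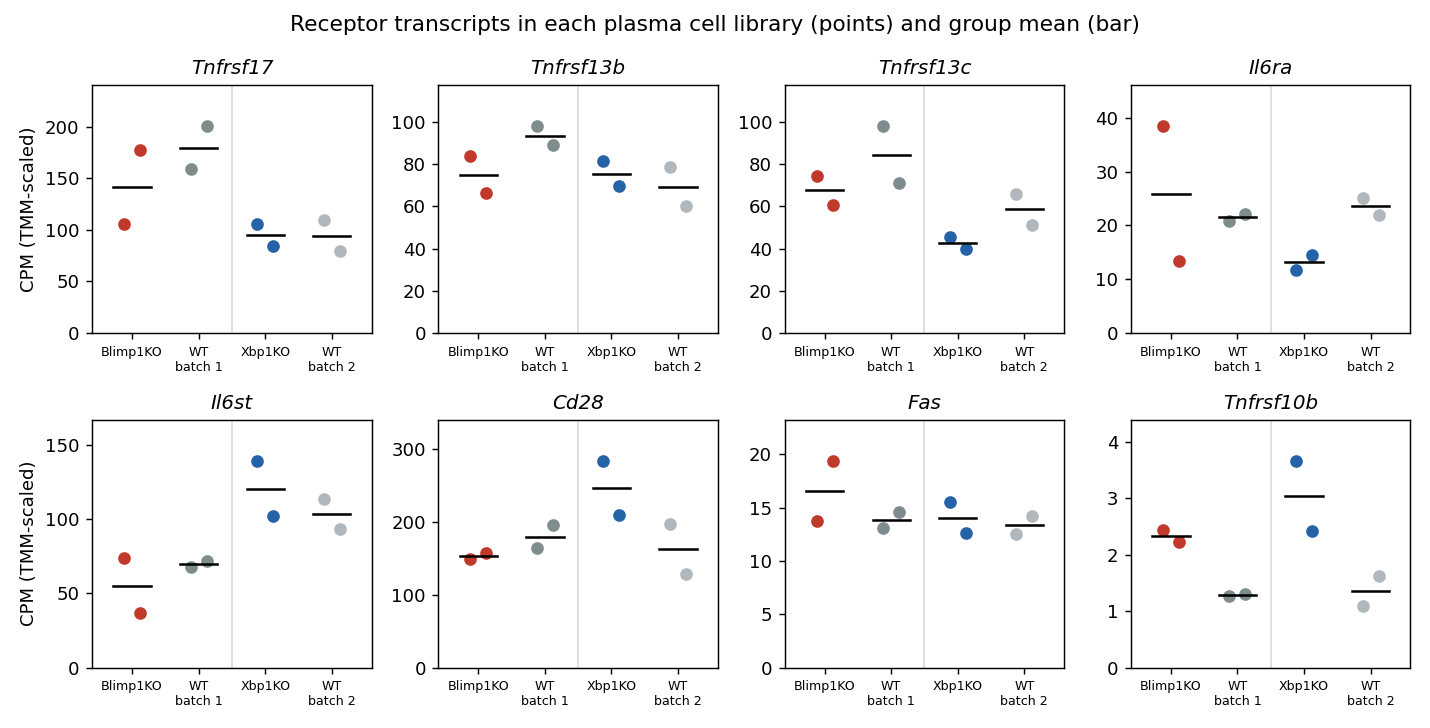
CPM (y axis, from 0) of each receptor in the 8 libraries, grouped on the x axis with each knockout left of WT of its batch; points are libraries and bars are means of 2. Tnfrsf10b is the 1 receptor whose knockout libraries lie above WT in both batches, and, on a log2 scale, the widest gaps within a group are those of Il6ra and Il6st between the Blimp1KO libraries.

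Among the BAFF and APRIL receptors, transcripts of BCMA and TACI were present in both knockouts with no difference from WT that passed the test, and those of the BAFF receptor had negative estimates in both and did not pass either. Tnfrsf17 (chromosome 16, 11313232 to 11320074) had 105 and 178 CPM in Blimp1KO, against 159 and 200 CPM in WT of batch 1. In Xbp1KO it had 106 and 84.3 CPM, against 109 and 79.2 CPM in WT of batch 2. Knockout and WT values overlapped in both batches. The log2 fold change was -0.34 ± 0.30 in Blimp1KO (SE, 2 libraries per group here and below; 95% interval -1.06 to 0.37, adjusted p = 0.727) and 0.01 ± 0.30 in Xbp1KO (-0.71 to 0.73, adjusted p = 0.988). Leaving out Blimp1KO replicate 1 brought the Blimp1KO estimate to 0.034, and the sign in Xbp1KO turned under RLE size factors (-0.0049) and under TMM without immunoglobulin genes (-0.048).

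Tnfrsf13b (chromosome 11, 61126283 to 61153170), the gene of TACI, had 83.8 and 66.3 CPM in Blimp1KO, against 98.0 and 88.9 CPM in WT of batch 1. It had 81.5 and 69.5 CPM in Xbp1KO, against 78.6 and 60.1 CPM in WT of batch 2. Both Blimp1KO libraries lay below both WT libraries, while Xbp1KO and WT overlapped. Its log2 fold change was -0.32 ± 0.21 in Blimp1KO (-0.80 to 0.17, adjusted p = 0.589) and 0.12 ± 0.21 in Xbp1KO (-0.36 to 0.61, adjusted p = 0.775), the second turning to -0.076 without Xbp1KO replicate 1 and to -0.065 without WT replicate 4.

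Tnfrsf13c (chromosome 15, 82221742 to 82224380) encodes the BAFF receptor, which naive B cells need for survival. Its level was 74.5 and 60.6 CPM in Blimp1KO, against 98.0 and 70.9 CPM in WT of batch 1. In Xbp1KO the level was 45.7 and 40.0 CPM, against 66.1 and 51.0 CPM in WT of batch 2. The Xbp1KO libraries were the lowest of all and did not overlap WT, whereas 1 Blimp1KO library fell between the WT values. The Tnfrsf13c log2 fold change was -0.32 ± 0.23 in Blimp1KO (-0.86 to 0.21, adjusted p = 0.628) and -0.45 ± 0.23 in Xbp1KO (-0.99 to 0.09, adjusted p = 0.292), and the estimate stayed negative under every alternative run. The 8 mature B cell markers, which include other genes of naive B cells, summed to 892 to 1264 CPM in Blimp1KO, against 501 to 544 CPM in WT of batch 1, and to 679 to 750 CPM in Xbp1KO, against 397 to 461 CPM in WT of batch 2, with none at 0. Cd79b and Ms4a1 made up most of these sums, and the members were mixed. In Blimp1KO 6 had positive and 2 negative estimates, Ighd having 2.50 and 2.48 CPM, against 29.7 and 12.6 CPM in WT of batch 1, and Cr2 0.587 and 0.581 CPM, against 0.975 and 2.00 CPM. In Xbp1KO Cr2 rose (2.19, adjusted p = 0.0273), Cd79b had 595 and 532 CPM, against 311 and 283 CPM in WT of batch 2 (adjusted p = 0.100), and Ms4a1 overlapped WT. The part of such cells in the receptor levels was not tested.

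Neither IL-6 receptor chain passed the test in a knockout, and the 2 Blimp1KO libraries lay far apart for both. Il6ra (chromosome 3, 89869324 to 89913196) had 38.4 and 13.4 CPM in Blimp1KO, against 20.9 and 22.2 CPM in WT of batch 1. In Xbp1KO it had 11.7 and 14.5 CPM, against 25.1 and 22.0 CPM in WT of batch 2. The 2 Blimp1KO libraries thus stood on either side of WT, while both Xbp1KO libraries lay below it. The log2 fold change was 0.26 ± 0.43 in Blimp1KO (-0.74 to 1.27, adjusted p = 0.881) and -0.84 ± 0.43 in Xbp1KO (-1.86 to 0.17, adjusted p = 0.295). The Blimp1KO estimate was -0.64 without replicate 1 and 0.84 without replicate 2, so 1 library set its direction. The fit shares its spread over all groups: after Blimp1KO replicate 1 or 2 was left out, the Xbp1KO difference was called at -0.87 (adjusted p = 0.0154) in the first case and at -0.85 in the other (adjusted p = 0.0146). It was not called over batch 2 alone (adjusted p = 0.0506). Il6ra shares 242 exon bases with Gm42809 on the opposite strand, and the strand setting of the counting is not given in the sources used here, so reads of the 2 genes cannot be told apart there. The 10 neutrophil and monocyte markers, of cells that also express Il6ra, summed to 260 to 513 CPM in Blimp1KO against 291 to 358 CPM in WT of batch 1. In Xbp1KO they summed to 43.9 to 971 CPM against 12.3 to 416 CPM in WT of batch 2, with none at 0 in any group. The 513 CPM are those of Blimp1KO replicate 1, the library with the higher Il6ra. Lyz2 (345 CPM there, 109 in replicate 2) and Csf1r (71.3 and 25.8) were higher in it, as were Csf3r, Cd14 and Itgam. S100a8 (12.0 and 30.9 CPM) and S100a9 (15.6 and 42.7) were lower in it, as were Elane, Mpo and Ly6g. The high values of batch 2 are those of Xbp1KO replicate 2 and WT replicate 4, without which the Il6ra estimate in Xbp1KO was -1.11. Of the 43.9 CPM in Xbp1KO replicate 1, 41.7 were Itgam, which had 40.8 CPM in replicate 2, against 7.66 and 14.8 CPM in WT of batch 2. The other markers were at most 0.626 CPM (Lyz2) in Xbp1KO replicate 1. There S100a8, S100a9, Csf1r, Csf3r, Lyz2 and Cd14 were lower than in WT replicate 3, and Elane, Mpo and Ly6g were higher. The part of neutrophils and monocytes in the Il6ra levels was not tested further.

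Il6st (chromosome 13, 112464070 to 112506860), the gp130 gene, had 73.9 and 36.7 CPM in Blimp1KO, against 67.5 and 71.5 CPM in WT of batch 1. Its level was 139 and 102 CPM in Xbp1KO, against 114 and 93.4 CPM in WT of batch 2. Values overlapped in both batches, and batch 2 libraries were all above batch 1 libraries. The estimated log2 fold change was -0.33 ± 0.33 in Blimp1KO (-1.12 to 0.46, adjusted p = 0.767) and 0.22 ± 0.33 in Xbp1KO (-0.57 to 1.00, adjusted p = 0.750). Without Blimp1KO replicate 2 the first was 0.092, and without Xbp1KO replicate 1 the second was -0.10.

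Cd28 (chromosome 1, 60746388 to 60773359) was detected in every library, and its estimates had opposite signs in the 2 knockouts, neither passing the test. It had 149 and 157 CPM in Blimp1KO, against 164 and 195 CPM in WT of batch 1. The Xbp1KO libraries had 283 and 209 CPM, against 197 and 129 CPM in WT of batch 2. The 10 T and NK cell markers together summed to 18.0 to 19.7 CPM in Blimp1KO against 16.6 to 28.1 CPM in WT of batch 1, and to 7.97 to 14.8 CPM in Xbp1KO against 7.04 to 9.64 CPM in WT of batch 2. Cd4 was the largest part of the sum in every library, with 10.9 and 10.5 CPM in Blimp1KO, against 10.2 and 25.9 CPM in WT of batch 1. It had 6.11 and 11.8 CPM in Xbp1KO, against 4.46 and 7.77 CPM in WT of batch 2. Over all libraries Cd3d had 0 to 0.997, Cd3e 0 to 0.533 and Cd3g 0.519 to 5.92 CPM. The Cd28 values of Blimp1KO lay below WT and those of Xbp1KO above WT, in both cases without overlap. For Cd28 the log2 fold change was -0.23 ± 0.26 in Blimp1KO (-0.85 to 0.39, adjusted p = 0.805) and 0.59 ± 0.26 in Xbp1KO (-0.03 to 1.22, adjusted p = 0.233), with the same sign under every alternative run. The difference between the 2 knockout effects was -0.82 ± 0.37 (adjusted p = 0.348) and was not called.

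Of the death receptors, Fas values overlapped between knockout and WT in both batches, and Tnfrsf10b had the highest estimates of the 8 receptors in both knockouts. Fas (chromosome 19, 34290647 to 34327775) had 13.8 and 19.4 CPM in Blimp1KO, against 13.1 and 14.6 CPM in WT of batch 1. In batch 2 it had 15.5 and 12.6 CPM in Xbp1KO, against 12.6 and 14.2 CPM in WT of batch 2. The highest value was that of Blimp1KO replicate 2. The log2 fold change was 0.26 ± 0.21 in Blimp1KO (-0.23 to 0.74, adjusted p = 0.683) and 0.07 ± 0.20 in Xbp1KO (-0.41 to 0.55, adjusted p = 0.870). It was -0.0055 in Blimp1KO without replicate 2, and in Xbp1KO -0.16 without Xbp1KO replicate 1 and -0.018 without WT replicate 3.

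Tnfrsf10b (chromosome 14, 69767472 to 69784411), the single TRAIL receptor with a death domain in the mouse, was scarce, with 179 and 169 counts in Blimp1KO, against 56 and 62 counts in WT of batch 1, and with 684 and 224 counts in Xbp1KO, against 129 and 113 counts in WT of batch 2. That was 2.44 and 2.23 CPM in Blimp1KO, against 1.27 and 1.30 CPM in WT of batch 1. Xbp1KO had 3.66 and 2.42 CPM, against 1.10 and 1.63 CPM in WT of batch 2. In each batch both knockout libraries lay above both WT libraries, as did those of 20.9% of all genes in Blimp1KO and 31.8% in Xbp1KO. The share of genes that did so in both batches was not counted. On the log2 scale the change was 0.86 ± 0.36 in Blimp1KO (0.01 to 1.71, unadjusted p = 0.0474, adjusted p = 0.353) and 1.16 ± 0.36 in Xbp1KO (0.31 to 2.00, unadjusted p = 0.0142, adjusted p = 0.104), so neither passed the threshold over all genes. Over all alternatives the estimate stayed positive, at 0.82 to 0.96 in Blimp1KO and 0.76 to 1.72 in Xbp1KO, the highest being that without the 2 batch 2 libraries high in neutrophil and erythroid markers (adjusted p = 0.193). DESeq2 called the Xbp1KO difference (1.15, adjusted p = 0.0358), and it was the 1 alternative of 18 that did. The 2 knockout effects differed by -0.29 ± 0.50 (-1.48 to 0.89, adjusted p = 0.854), which does not show that they are equal.

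**Figure D2:**
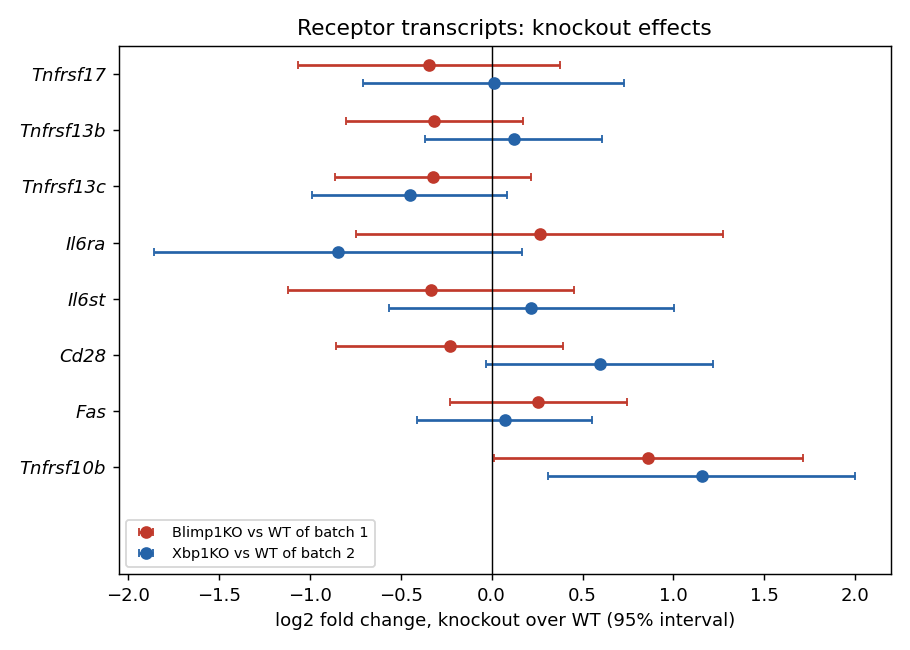
Log2 fold change of each receptor (x axis), Blimp1KO over WT of batch 1 above and Xbp1KO over WT of batch 2 below, with 95% intervals from edgeR's quasi-likelihood fit as bars. The intervals cross 0 except those of Tnfrsf10b, which start at 0.01 in Blimp1KO and 0.31 in Xbp1KO before adjustment over all genes.

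Receptors whose knockout and WT libraries did not overlap numbered 3 of 8 in Blimp1KO, where 43.1% of all genes did not overlap, and 4 of 8 in Xbp1KO, where 57.6% did not. In Blimp1KO these were Tnfrsf13b and Cd28, lower (22.1% of all genes), and Tnfrsf10b, higher (20.9% of all genes). In Xbp1KO they were Tnfrsf13c and Il6ra, lower (25.8%), and Cd28 and Tnfrsf10b, higher (31.8%). The shares of the receptors are near those of all genes. A direct test of the difference between the 2 knockout effects called 0 of 8 receptors, where 1.68% of all genes were called, and 0 of 8 passed at an unadjusted p below 0.05, where 15.9% of all genes did. The largest difference of effects by estimate was that of Il6ra, 1.11 ± 0.60 (adjusted p = 0.444). With a library left out it ran from 0.23, without Blimp1KO replicate 1, to 1.69, without Blimp1KO replicate 2. Its size thus depended on which Blimp1KO library was kept.

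Between the WT groups, no receptor was called either, where 2.81% of all genes were. At an unadjusted p below 0.05, 1 of 8 passed, where 27.1% of all genes did, and this was Tnfrsf17, with a log2 difference of -0.93 ± 0.31 (batch 2 minus batch 1, adjusted p = 0.125), its 109 and 79.2 CPM in WT of batch 2 lying below 159 and 200 CPM in WT of batch 1. It was called by DESeq2 (adjusted p = 0.0339), without the filter on low counts (adjusted p = 0.0473) and with Blimp1KO replicate 2 left out (adjusted p = 0.0371). By estimate, that gap between batches was larger than the difference in either knockout. When both WT groups were pooled, the Tnfrsf17 estimate was 0.047 in Blimp1KO and -0.53 in Xbp1KO, so the WT used decided its size and sign.

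Per kilobase of gene length, BCMA and TACI were the most abundant of the receptors and DR5 the least in every group. Mean levels of Tnfrsf17 were 174 ± 63.1 CPM per kilobase in Blimp1KO and 221 ± 36.3 in WT of batch 1, and 117 ± 18.6 in Xbp1KO and 116 ± 26.2 in WT of batch 2 (SD, n = 2). Tnfrsf13b came next with 100.1 ± 16.4 in Blimp1KO against 125 ± 8.58 in WT of batch 1, and 101 ± 11.3 in Xbp1KO against 92.5 ± 17.4 CPM per kilobase in WT of batch 2. The 2 genes did not overlap in batch 1 and overlapped in both groups of batch 2. Tnfrsf13c and Cd28 shared the next places, overlapping in every group but Xbp1KO, where Cd28 (57.0 ± 12.2 CPM per kilobase) stood above Tnfrsf13c (22.5 ± 2.12), itself overlapping Il6st. Il6st, Fas and Il6ra followed in that order by mean in all 4 groups, from 22.1 down to 3.92 CPM per kilobase over the groups, and overlapped one another in Blimp1KO. Fas and Il6ra also overlapped in WT of batch 2. Tnfrsf10b was last at 0.736 ± 0.0474 in Blimp1KO and 0.405 ± 0.00713 in WT of batch 1, and 0.955 ± 0.276 in Xbp1KO and 0.429 ± 0.117 CPM per kilobase in WT of batch 2. No library of Tnfrsf10b reached the lowest value of any other receptor.

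**Figure D3:**
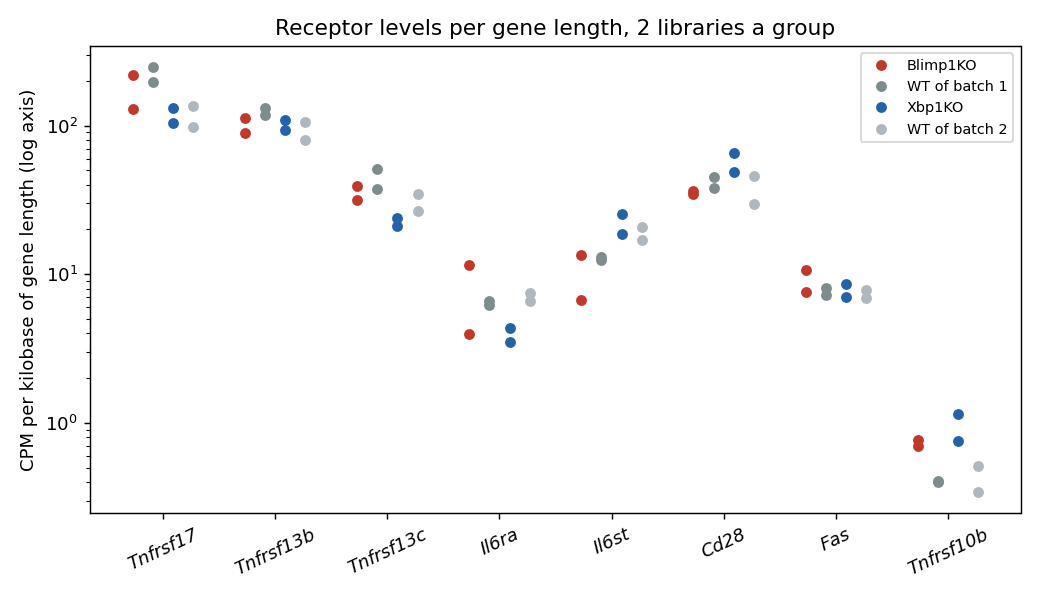
CPM per kilobase of gene length (y axis, log scale) for each receptor, with 2 points per group. Tnfrsf17 and Tnfrsf13b lie at the top in every group and Tnfrsf10b, at most 1.15 CPM per kilobase, at the bottom.

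The 2 Blimp1KO libraries differed from each other with gene length, and the receptors followed this trend only in part. Over 15073 genes, the log2 difference between Blimp1KO libraries 2 and 1 had a Spearman rho of -0.50 with gene length, whereas in the other groups rho lay between -0.02 and 0.05 (across genes, which are not independent replicates). The median difference was 0.55 for the 2008 genes below 1 kb and -0.49 for the 3899 genes from 4 kb, and all 77 ribosomal protein genes, which are short, were higher in library 2 (median 0.84). Among the receptors, Tnfrsf17 (0.812 kb) differed by 0.76 and Fas (1.801 kb) by 0.49, close to medians of 0.55 and 0.35 for genes of their length class. Il6st (5.452 kb) differed by -1.01 and Il6ra (3.343 kb) by -1.52, both well beyond their class medians of -0.37 and -0.14. Tnfrsf13b (0.750 kb) differed by -0.34 and Tnfrsf13c (1.906 kb) by -0.30, both opposite to their class medians of 0.55 and 0.35. Cd28 (4.317 kb) differed by 0.08 beside a class median of -0.37, and Tnfrsf10b (3.179 kb) by -0.13 beside -0.14. After the trend with length was removed from every library (rho 0.0089 afterwards), limma called 0 of 8 receptors in either knockout. The estimates for Blimp1KO were then -0.42 for Tnfrsf17, 0.13 for Il6ra, -0.32 for Il6st and 0.90 for Tnfrsf10b.

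**Figure D4:**
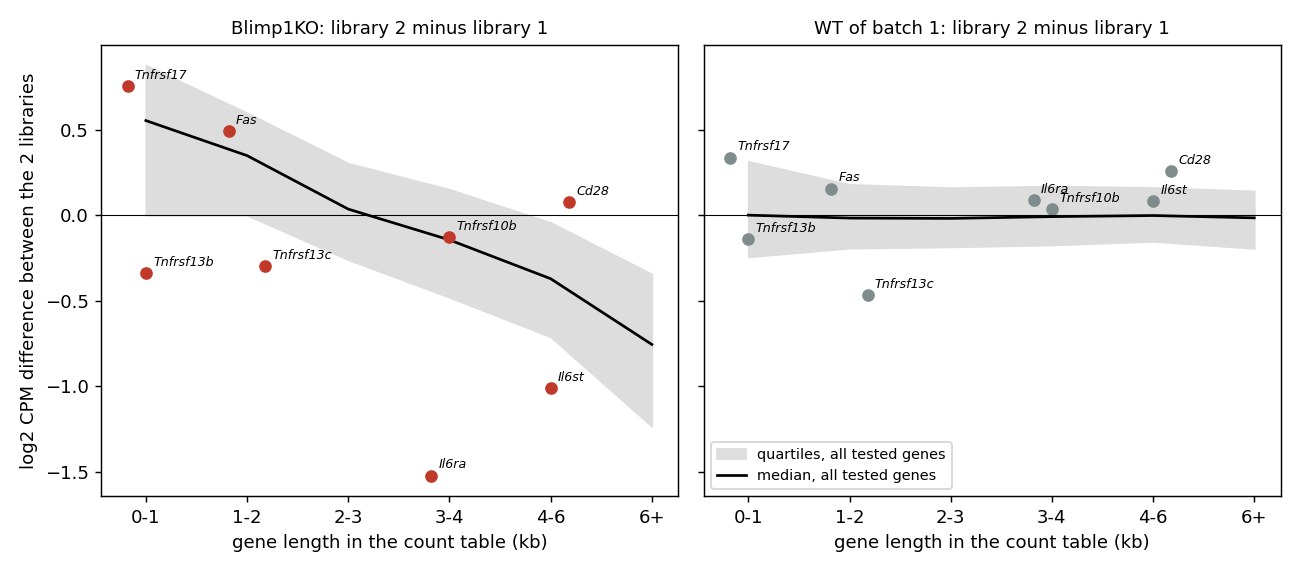
Log2 CPM difference between the 2 libraries of a group (y axis) against gene length class in kilobases (x axis), for Blimp1KO on the left and WT of batch 1 on the right; line and band are the median and quartiles of all tested genes and points are the receptors. The median slopes from 0.55 to -0.76 across the classes in Blimp1KO and stays near 0 in WT.

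Across the 8 libraries, the genes with the profile most like each receptor's were found by Pearson's r of log2 CPM. The search covered 6937 protein-coding genes that averaged 3 or more on that scale, without immunoglobulin genes and Gm, Rik or LOC names. These values are descriptions, since the libraries share batches, depth and the length trend. They are also the highest among 6937 genes over only 8 libraries, where unrelated genes can reach a high r. Tnfrsf17 went with Psmc2 (r = 0.973) and Lamtor3 (0.969), a proteasome subunit and a lysosomal signalling scaffold. Tnfrsf13b went with Lypla1 (0.983) and Arl8b (0.940), and Tnfrsf13c with Ccrl2 (0.977) and Tesk1 (0.966). Il6ra was closest to Pip5k1a (0.955) and Inpp5d (0.953), which both encode enzymes of phosphoinositide metabolism, and Il6st to Dhx8 (0.992) and Trappc8 (0.989). Cd28 was closest to Mthfd2 (0.934), of mitochondrial folate metabolism, and the alanyl-tRNA synthetase gene Aars (0.931). For Fas the nearest were Rpl35 (0.951) and Prorsd1 (0.937). For Tnfrsf10b they were Zfp207 (0.988) and Tars2 (0.978), the mitochondrial threonyl-tRNA synthetase. Between receptors, r ran from -0.66 for Tnfrsf17 with Il6st to 0.69 for Tnfrsf13b with Tnfrsf13c.

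The ligands and signalling partners of the receptors, 103 tested genes in 7 lists, gave 6 called genes in Blimp1KO, all higher, and 7 in Xbp1KO, 4 higher and 3 lower. These are 5.83% and 6.80% of the partners, beside 0.862% and 7.70% of all genes. The lists were chosen with earlier results of these data known, so the shares do not test whether partners change more often than other genes. Of 7 ligand genes, 6 were tested, Il6 being too low. Cd80, which encodes a ligand of CD28, rose to 17.3 and 14.0 CPM in Blimp1KO, against 3.17 and 3.70 CPM in WT of batch 1 (log2 fold change 2.19 ± 0.23, adjusted p = 0.0263). Tnfsf10, the gene of TRAIL, fell to 18.6 and 14.4 CPM in Xbp1KO, against 34.7 and 38.6 CPM in WT of batch 2 (-1.15 ± 0.20, adjusted p = 0.0206), and had an estimate of -0.68 in Blimp1KO (adjusted p = 0.198). Tnfrsf10b, the gene of its receptor, had positive estimates of 0.86 in Blimp1KO and 1.16 in Xbp1KO that did not pass. The BAFF gene Tnfsf13b (0.610 to 2.83 CPM) and the APRIL gene Tnfsf13 (0 to 0.260 CPM) were low in all libraries. The 6 ligand genes had a median of 0.53 in Blimp1KO, against -0.01 over all genes, and -0.21 in Xbp1KO, against 0.08.

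Of 21 genes of TRAF adaptors and NF-kB signalling, which BCMA, TACI, the BAFF receptor and CD40 engage, 1 was called in Blimp1KO and 0 in Xbp1KO. Traf5, an adaptor of several TNF receptors, rose to 14.2 and 12.5 CPM in Blimp1KO, against 5.01 and 4.33 CPM in WT of batch 1 (1.52 ± 0.19, adjusted p = 0.0324). In Xbp1KO it had 3.27 and 3.77 CPM, against 5.89 and 6.23 CPM in WT of batch 2 (-0.78 ± 0.19, adjusted p = 0.05004), just outside the threshold, and Ikbkb had an estimate of 0.45 ± 0.19 (adjusted p = 0.210). The list's medians were 0.26 in Blimp1KO and -0.09 in Xbp1KO. Gamma-secretase, which cleaves BCMA from the cell surface, and the ADAM proteases that shed other receptors, with their regulators, made up a list of 10. None of these was called in Blimp1KO, where Adam17 (0.28, adjusted p = 0.570) and Rhbdf2 (0.31, adjusted p = 0.583) had the smallest p. In Xbp1KO the gamma-secretase subunit gene Ncstn (nicastrin) rose to 249 and 209 CPM, against 71.1 and 56.0 CPM in WT of batch 2 (1.85 ± 0.19, adjusted p = 0.00382), and the call held under 17 of 18 alternatives, ending without Xbp1KO replicate 2 and WT replicate 4 (1.80, adjusted p = 0.0922). The list's medians were -0.07 in Blimp1KO and 0.24 in Xbp1KO.

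Of 16 genes of the IL-6 receptor family and JAK-STAT3 signalling, 14 were tested (Osmr and Cntfr were too low) and 1 was called in each knockout. Il27ra, a receptor chain that pairs with gp130, rose to 14.6 and 16.0 CPM in Blimp1KO, against 2.65 and 3.13 CPM in WT of batch 1 (2.40 ± 0.35, adjusted p = 0.0382). Ptpn6, the gene of the phosphatase SHP-1, fell to 67.3 and 74.4 CPM in Xbp1KO, against 129 and 129 CPM in WT of batch 2 (-0.86 ± 0.18, adjusted p = 0.0323). The medians of that list were 0.17 in Blimp1KO and -0.19 in Xbp1KO. Of 17 CD28 relatives and PI3K genes, 0 were called in either knockout by edgeR, with 2 at an unadjusted p below 0.05 in each and medians of 0.03 in Blimp1KO and -0.10 in Xbp1KO. Among these were Grb2, an adaptor that CD28 recruits, at 0.88 ± 0.15 (adjusted p = 0.0516) and Foxo3 at -0.87 ± 0.34 (adjusted p = 0.318) in Blimp1KO, and Pik3ap1 at -0.81 ± 0.34 (adjusted p = 0.210) in Xbp1KO.

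Of 16 genes of death receptor signalling, 1 was called in each knockout, and the medians were 0.16 in Blimp1KO and 0.09 in Xbp1KO. Faim3, listed as an inhibitor of Fas signalling and now named Fcmr for its role as an Fc receptor of IgM, rose to 393 and 581 CPM in Blimp1KO, against 76.0 and 48.7 CPM in WT of batch 1 (2.97 ± 0.30, adjusted p = 0.0259). Bid, which links caspase 8 to mitochondria, rose to 34.5 and 28.8 CPM in Xbp1KO, against 17.0 and 15.8 CPM in WT of batch 2 (0.95 ± 0.16, adjusted p = 0.0184). Of 23 other TNF receptors 19 were tested, and 2 rose in Blimp1KO, while 2 rose and 1 fell in Xbp1KO. Tnfrsf26, a TNF receptor superfamily member of the mouse, rose to 11.1 and 13.8 CPM in Blimp1KO, against 3.38 and 2.73 CPM in WT of batch 1 (2.03 ± 0.22, adjusted p = 0.0263). Cd40, a receptor of B cells for T cell help, rose to 24.7 and 33.7 CPM in Blimp1KO, against 9.64 and 8.21 CPM in WT of batch 1 (1.71 ± 0.27, adjusted p = 0.0467), and to 15.1 and 9.42 CPM in Xbp1KO, against 4.67 and 3.94 CPM in WT of batch 2 (1.51 ± 0.27, adjusted p = 0.0218). Also in Xbp1KO, Tnfrsf18, the gene of GITR, rose by 0.84 ± 0.20 (adjusted p = 0.0489) and Tnfrsf9, the gene of 4-1BB, fell by 2.70 ± 0.58 (adjusted p = 0.0371), the second from 14 and 4 counts in Xbp1KO against 35 and 35 in WT of batch 2. The medians of these receptors were 0.19 in Blimp1KO and 0.17 in Xbp1KO.

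**Figure D5:**
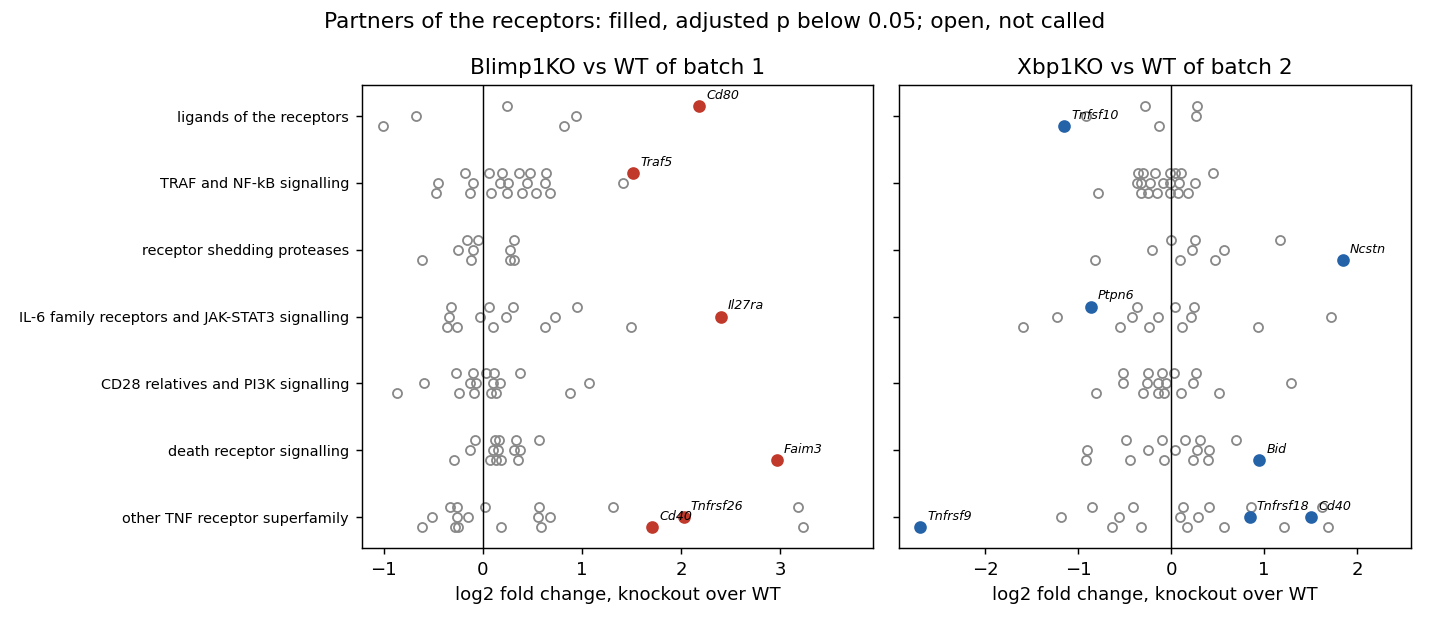
Log2 fold change (x axis) of every tested partner gene by list, Blimp1KO over WT of batch 1 on the left and Xbp1KO over WT of batch 2 on the right; filled points were called at an adjusted p below 0.05. The 6 called genes in Blimp1KO are all higher, and Ncstn at 1.85 is the highest called gene in Xbp1KO.

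The partner calls rested on few libraries. A fit without 1 library leaves 1 in that library's group. Without any 1 of the WT libraries, almost no gene of the whole table was called in Blimp1KO. Calls lost in Blimp1KO in those fits are therefore not particular to the partners. All 6 calls in Blimp1KO ended when any of WT replicates 1 to 4 was left out, and those of Il27ra and Cd40 also without Blimp1KO replicate 2, while the estimates stayed at 2.07 to 2.33 for Cd80, 1.42 to 1.63 for Traf5, 2.29 to 2.53 for Il27ra, 2.66 to 3.33 for Faim3, 1.87 to 2.22 for Tnfrsf26 and 1.47 to 1.96 for Cd40. With replicate numbers as a block, Il27ra (adjusted p = 0.0622) and Cd40 (adjusted p = 0.0779) were not called. Over batch 1 alone, the calls of Cd80, Traf5, Faim3, Tnfrsf26 and Cd40 ended, and limma-voom did not call Cd40. In Xbp1KO, Ncstn kept its call in all 8 fits that left out a library. The others lost it in 3 (Tnfsf10: Xbp1KO replicate 2, WT replicates 3 and 4), 4 (Cd40: Xbp1KO replicate 1, WT replicates 1, 3 and 4), 6 (Bid, Ptpn6 and Tnfrsf18: every library outside Blimp1KO) and 7 (Tnfrsf9: every library but Blimp1KO replicate 2) of them. Pooling both WT groups also ended the calls of Bid, Cd40 and Tnfrsf18. Tnfrsf9 also lost its call in batch 2 alone, with limma-voom and on log2 FPKM, and Tnfrsf18 in batch 2 alone, with RLE size factors, with TMM without immunoglobulin genes and on log2 FPKM. With Xbp1KO replicate 2 and WT replicate 4 both left out, Il27ra in Blimp1KO was the 1 partner gene named here that kept its call (adjusted p = 0.0427). Cd40 and Cd80 are genes of activated and mature B cells, and of the 8 mature B cell markers 0 were called in Blimp1KO by edgeR. At an unadjusted p below 0.05, 6 of these 8 passed, 4 higher (Ms4a1, Cd22, Fcer2a and Cd79b) and 2 lower (Ighd and Cr2), where 13.9% of all genes passed. The part of those cells in the partner calls was not tested.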

How the data were processed

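RNA was prepared with the RNeasy Micro kit and sequenced as TruSeq RNA libraries, per the labels' protocols. Deposited values are raw counts per Entrez gene for the series and log2 FPKM per library, per the file headers. Subread, featureCounts, limma and GRCm38 (mm10) are named in the submitters' processing notes, without versions or roles. Of 27179 genes, 13860 took symbols from the deposited files and 11720 from RefSeq (GRCm38.p6).

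Counts were fitted with edgeR 4.0.16 in R 4.3.3: filterByExpr at a minimum count of 10, TMM, a mean for each of 4 groups, the quasi-likelihood test (4 residual, 3.06 prior degrees of freedom) and Benjamini-Hochberg adjustment over 15073 genes, called below 0.05. The standard error is the absolute log2 fold change over the square root of F. The fit was tested on simulated counts. Alternatives were RLE, TMM without immunoglobulin genes, no filter, DESeq2 1.42.0, limma 3.58.1 (voom, or on the deposited log2 FPKM), batch alone, pooled WT, the replicate block, leaving out each library and, chosen after the length trend was seen, removal of each library's lowess trend over gene length. Leaving out both batch 2 libraries high in neutrophil and erythroid markers was also chosen after seeing the data.

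Within-group differences of counts and deposited log2 FPKM correlated at -0.984 in Blimp1KO and -0.981 in WT of batch 1, but at 0.930 in Xbp1KO and 0.977 in WT of batch 2. Replicate numbers of batch 1 are thus crossed between the 2 kinds of file, which leaves the groups as they are. Numbers here follow the count table.

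Named genes are the 8 receptors, up to 4 called genes per partner list and knockout with the smallest p (or 2 where none was called), and the 2 genes most like each receptor. Receptors and lists were chosen with earlier results of these data known. Replicates are called biological without more detail, so the variation behind the p-values is only that between these libraries. In the main fit it is estimated over all 4 groups and moderated across genes, not from the 2 groups compared. The result of 1 gene is not reported here.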

Additional observations from a re-analysis of the deposited data

Results flagged for a closer look

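For 6 partner genes of the receptors the effects of the 2 knockouts differed, each against WT of its own batch, by edgeR's quasi-likelihood test of the difference (Blimp1KO effect minus Xbp1KO effect, Benjamini-Hochberg over all genes). The difference was 3.87 ± 0.40 on the log2 scale for Faim3 (2.97 in Blimp1KO and -0.90 in Xbp1KO, adjusted p = 0.0124). It was 2.35 ± 0.30 for Tnfrsf26 (2.03 and -0.33, adjusted p = 0.0220) and 2.30 ± 0.26 for Traf5 (1.52 and -0.78, adjusted p = 0.0158). Cd80 differed by 1.92 ± 0.32 (2.19 and 0.27, adjusted p = 0.0408) and Grb2 by 1.18 ± 0.20 (0.88 and -0.30, adjusted p = 0.0444). Ncstn differed by -1.97 ± 0.26 (-0.12 and 1.85, adjusted p = 0.0247). For the 8 receptors this difference was not called. A fit without 1 library leaves 1 in that library's group, and the number of genes called over the whole table moved widely in such fits. Leaving out any one of the 4 WT libraries ended the call of each of the 6 genes. Without Xbp1KO replicate 1 those of Cd80, Traf5, Ncstn, Grb2 and Tnfrsf26 also ended, and without Xbp1KO replicate 2 those of Cd80, Grb2 and Tnfrsf26. Of the 8 other alternatives run for this difference, leaving out both Xbp1KO replicate 2 and WT replicate 4 ended all 6 calls, limma-voom ended that of Cd80 and the rest ended none. Over all of these fits the difference stayed at 3.57 to 4.23 for Faim3, 2.20 to 2.66 for Tnfrsf26, 2.21 to 2.55 for Traf5, 1.69 to 2.14 for Cd80, 1.10 to 1.34 for Grb2 and -2.14 to -1.71 for Ncstn. The knockouts are in different batches, so batch and knockout cannot be told apart in these differences beyond the WT of each batch.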

How the results depend on the processing

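No receptor was called in Blimp1KO under any alternative run. The number called in Xbp1KO was 1 with DESeq2 and 0 to 1 over the fits that left out a library; in the difference of effects it was 0 to 1 over those fits; between WT groups it was 1 without the filter, 1 with DESeq2 and 0 to 1 over those fits. Genes called over the whole table moved far more. In Blimp1KO, where 130 were called, they numbered 517 without the filter, 856 with DESeq2, 83 with limma-voom, 20 in batch 1 alone, 269 with pooled WT, 496 after the length correction and 0 to 688 with a library left out. In Xbp1KO (1160 called) they numbered 2220 with DESeq2, 2048 after the length correction and 225 to 2123 with a library left out. For the difference of effects (253) the counts were 763 without the filter, 1180 with DESeq2, 754 after the length correction and 3 to 598, and between WT groups (423) they were 1662, 2005 and 978 under those settings, 204 with limma-voom and 14 to 2963 with a library left out.

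Leaving out both batch 2 libraries high in neutrophil and erythroid markers, chosen after their markers were seen, gave 31 called genes in Blimp1KO, 59 in Xbp1KO, 2 for the difference of effects and 32 between WT groups; Tnfrsf17 in Xbp1KO was then -0.056, and between WT groups Cd28 was 0.20 and Tnfrsf10b -0.16.

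Some estimates that were not called changed sign. Tnfrsf17 was 0.047 in Blimp1KO with pooled WT, and in Xbp1KO -0.0049 with RLE, -0.048 with TMM without immunoglobulin genes, -0.0049 with DESeq2, -0.0073 in batch 2 alone, -0.53 with pooled WT and -0.19 after the length correction. Tnfrsf13b in Xbp1KO was -0.11 with pooled WT and -0.061 after the length correction. Fas after that correction was -0.037 in Xbp1KO and 0.16 between WT groups, where Cd28 was 0.0011 on log2 FPKM and Tnfrsf10b -0.0030 with limma-voom. With a library left out, Tnfrsf17 ran from -0.77 to 0.034 in Blimp1KO, -0.24 to 0.26 in Xbp1KO and -0.77 to 0.037 in the difference of effects, Tnfrsf13b from -0.076 to 0.32 in Xbp1KO and Tnfrsf13c from -0.077 to 0.39 in the difference. Il6ra ran from -0.64 to 0.84 and Il6st from -0.87 to 0.092 in Blimp1KO, and Il6st from -0.10 to 0.45 in Xbp1KO. Fas ran from -0.0055 to 0.53 in Blimp1KO, -0.16 to 0.24 in Xbp1KO, -0.14 to 0.035 between WT groups and -0.073 to 0.47 in the difference. Cd28 (-0.48 to 0.14) and Tnfrsf10b (-0.22 to 0.34) turned between WT groups, and Tnfrsf10b (-0.59 to 0.16) in the difference. The cause was not tested.

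Blimp1KO and WT of batch 1 share replicate numbers. Across 15073 genes, the deviations of their replicate 1 libraries from the group means correlated at 0.218. With 2 libraries per group the deviations of replicate 2 mirror these, so this single value does not show a pairing. With the replicate block, 89 genes were called in Blimp1KO and 0 of 8 receptors. Xbp1KO and WT of batch 2 share no numbers, so no paired fit was possible there. The block, a single batch and the pooled WT give no value for the difference of effects or between WT groups. A lone library of a group was assumed to vary like the other groups. With 2 libraries per group, the SEs of the receptors were 0.20 to 0.43 on the log2 scale in the knockout comparisons. The intervals given beside each receptor hold the differences that its estimate does not exclude, before adjustment over all genes. They are not limits of detection, and the smallest difference that could be called is not given here.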
